A study of Mus musculus with 30 samples.

Results

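The 44 genes described here drive DNA replication and mitosis or hold the cycle back, and they were followed across 30 RNA-seq libraries of embryonic mouse lung and trachea. They were picked by symbol from a fixed list: each count table was searched by its gene IDs, mapped to mouse symbols, and all 44 were found among 53715 genes. They fall into 8 roles: entry to S phase (4 genes), the replication fork and nucleotide supply (11), cyclins, kinases and the anaphase activator of G2 and mitosis (7), centromere, checkpoint and chromosomal passenger proteins (8), spindle and cytokinesis proteins (7), the proliferation markers Mki67 and Top2a, transcription factors (3), and the CDK inhibitors Cdkn1a and Cdkn1c.

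The series compared embryos with and without Myocd in lung mesenchyme. Mutants carried Tbx4rtTAi/+ (a tetracycline-controlled transactivator named for Tbx4, a gene of lung and trachea mesenchyme), tetOcrei/+ (a Cre that the transactivator switches on) and MyocdF/F, floxed on both copies. Controls carried the same transgenes with MyocdF/+, except E13.5 control replicate 1, which was MyocdF/F without transgenes. Each library came from 1 organ: both lungs at E13.5 (5 controls, 5 mutants), right lung lobes at E18.5 (4 controls, 6 mutants) and trachea at E18.5 (4 controls, 6 mutants). Wherever Cre had acted, controls other than that replicate could thus also have lost 1 Myocd copy, and cells without Cre kept the floxed gene.

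A dividing cell licenses its replication origins with Cdc6, Cdt1 and the MCM helicase, copies its DNA with PCNA and the nucleotides that ribonucleotide reductase and thymidylate synthase supply, and then enters mitosis under cyclin B and CDK1. Most of these mRNAs accumulate only in cycling cells, S phase genes largely through E2F factors and mitotic genes through the MuvB complex with B-Myb and FOXM1. In the developing lung, division is brisk while airways branch and slows as the alveolar cells mature before birth.

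RefSeq promoters (GRCm38.p6, 250 bases before to 50 after the start) were matched for 37 of the 44 genes, as 40 promoters, because nearly all members moved together between stages. Letters of 3 kinds were searched on both strands: the CHR core TTTGAA or TTTAAA (the latter its own reverse complement), the CCAAT box CCAAT, and the E2F forms TTTCGCGC, TTTCCCGC, TTTGGCGC or TTCCCGCC, the last overlapping TTTCCCGC by 7 letters where both occur. CHR letters were in 62.5% of the 40 member promoters and in 27.6% of all 32851 promoters of the same length, CCAAT in 72.5% and 37.4%, and E2F letters in 20% and 3.49%. Roles differed in which letters they held. Of 22 promoters of G2 and mitosis genes, 20 held CHR letters, 19 held CCAAT and 1 held E2F letters, whereas of 14 promoters of S phase and replication genes, 5 held CHR letters, 10 held CCAAT and 7 held E2F letters. These are letter matches, not measured binding.

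The 200 bases before the start are shown for 3 replication genes (Mcm2, Mcm3 and Rrm1) and 4 mitotic genes (Ttk, Kif11, Top2a and Mki67), picked among members whose stretch touches no annotated exon, to show how the letters lie; capitals mark the matches.
Mcm2 (minus strand, chr6:88898781-88898980): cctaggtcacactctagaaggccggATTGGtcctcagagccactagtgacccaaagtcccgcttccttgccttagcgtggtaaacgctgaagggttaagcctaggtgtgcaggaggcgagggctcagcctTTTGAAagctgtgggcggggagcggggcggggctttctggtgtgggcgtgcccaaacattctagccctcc
Mcm3 (minus strand, chr1:20820313-20820512): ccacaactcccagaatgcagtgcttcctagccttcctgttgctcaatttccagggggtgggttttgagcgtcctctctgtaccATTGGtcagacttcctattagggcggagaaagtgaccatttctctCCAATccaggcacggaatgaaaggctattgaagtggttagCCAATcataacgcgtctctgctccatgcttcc
Rrm1 (plus strand, chr7:102441495-102441694): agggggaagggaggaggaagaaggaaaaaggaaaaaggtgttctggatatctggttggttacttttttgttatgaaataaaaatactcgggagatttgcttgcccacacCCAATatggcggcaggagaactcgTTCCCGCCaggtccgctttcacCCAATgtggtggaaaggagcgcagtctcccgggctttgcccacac
Ttk (plus strand, chr9:83834489-83834688): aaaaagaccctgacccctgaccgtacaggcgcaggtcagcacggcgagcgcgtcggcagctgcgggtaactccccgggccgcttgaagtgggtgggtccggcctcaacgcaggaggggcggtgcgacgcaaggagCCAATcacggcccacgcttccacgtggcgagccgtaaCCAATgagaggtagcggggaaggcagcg
Kif11 (plus strand, chr19:37376182-37376381): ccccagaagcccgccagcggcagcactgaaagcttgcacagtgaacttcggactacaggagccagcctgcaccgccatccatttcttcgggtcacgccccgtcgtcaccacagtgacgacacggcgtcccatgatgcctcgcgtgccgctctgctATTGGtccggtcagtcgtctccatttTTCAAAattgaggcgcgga
Top2a (minus strand, chr11:99024190-99024389): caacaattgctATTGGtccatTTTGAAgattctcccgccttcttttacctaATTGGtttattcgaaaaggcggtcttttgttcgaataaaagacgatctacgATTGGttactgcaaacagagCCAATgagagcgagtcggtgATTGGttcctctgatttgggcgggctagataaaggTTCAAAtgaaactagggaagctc
Mki67 (minus strand, chr7:135716380-135716579): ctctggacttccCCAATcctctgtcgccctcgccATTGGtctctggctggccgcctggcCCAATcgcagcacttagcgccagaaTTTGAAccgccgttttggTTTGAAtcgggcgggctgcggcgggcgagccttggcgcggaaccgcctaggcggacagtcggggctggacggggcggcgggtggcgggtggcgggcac

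Levels below are CPM, which are counts relative to library size after scaling by TMM, a factor that evens out composition between libraries. Libraries held 17.4 to 28.5 M counts in E13.5 lung, 19.9 to 32.8 M in E18.5 lung and 11.7 to 30.5 M in trachea. A change is called where the Benjamini-Hochberg adjusted p of edgeR's quasi-likelihood test, over all genes tested, was under 0.05; ± gives an SD between libraries for a level and an SE for a log2 fold change. Lung and trachea labels matched their markers: 5 lung epithelium markers, mostly Sftpc and Sftpb, summed to 10600 to 14000 CPM in E18.5 lung, and 5 cartilage markers to 2880 to 14000 CPM in trachea against 18.1 to 27.8 CPM in E18.5 lung. Myocd itself did not separate the genotypes: it was at 10.1 to 18.8 CPM in E13.5 controls and 6.74 to 13 CPM in mutants, 6.03 to 11.8 and 5.59 to 10.1 CPM in E18.5 lung, and 0.889 to 8.06 and 2.69 to 8.80 CPM in trachea, and a count over the whole gene also holds reads from exons that Cre leaves. The sum of 4 markers of smooth muscle, a cell type that Myocd drives, did separate them. It had a median of 571 CPM against 164 to 334 CPM in E13.5 lung (lowest control 498). It was at 261 to 298 against 232 to 256 CPM in E18.5 lung and 605 to 949 against 141 to 332 CPM in trachea. Single markers did not all separate: Myh11 was apart each time, Des overlapped each time, and Acta2 overlapped in E18.5 lung (102 to 130 against 94.5 to 119 CPM). Nearby tissue was present in unequal amounts in the tracheas, with 3 thyroid markers summing to 3.77 to 628 CPM and 5 skeletal muscle markers to 13.2 to 2140 CPM. In whole organs, fewer cycling cells and less RNA per cycling cell cannot be told apart.

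Between E13.5 and E18.5 the cycle genes of control lung fell together. The 42 members other than the inhibitors summed to 8350, 8160, 8410, 8620 and 8560 CPM in E13.5 controls 1 to 5, and to 1630, 2240, 1680 and 1450 CPM in E18.5 controls 1 to 4. All 44 members were tested: 43 fell and 1 rose, where 39.6% of 17580 genes fell and 40.4% rose. The median log2 fold change of the members was -2.39, against 0.01 over all genes. In each of the 44, the E13.5 and E18.5 libraries did not overlap, as in 38.3% of all genes on the lower side and 34.5% on the higher side.

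**Figure D1:**
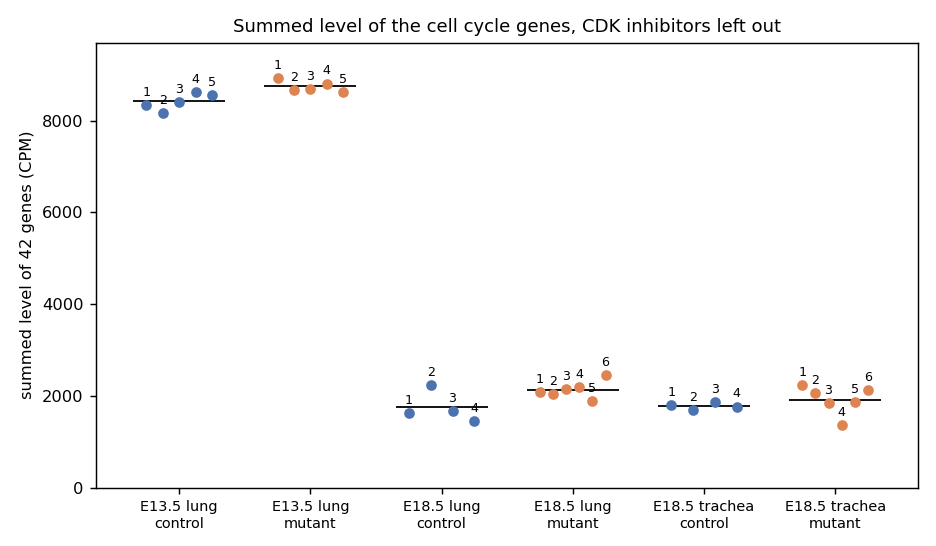
Summed level in CPM (vertical axis) of 42 cell cycle genes in each of 30 libraries, by group; points are libraries with their replicate number, blue for controls and orange for mutants, and lines are group means. E13.5 lungs lie between 8160 and 8940 CPM, all E18.5 lungs and tracheas between 1370 and 2450 CPM, and E18.5 lung control replicate 2 stands above the other 3 controls.

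The steepest falls were among the genes that start S phase. Ccne1 (chromosome 7, 38097984 to 38107534, GRCm38), which codes for cyclin E1, the partner of CDK2 at the start of S phase, was at 78.5, 73.2, 78.6, 77.1 and 77.1 CPM in E13.5 controls and at 3.43, 6.71, 5.43 and 4.22 CPM in E18.5 controls. The groups were far apart, and the log2 fold change was -3.89 ± 0.157 (adjusted p = 1.46e-10, edgeR). Cdc6, which loads the MCM helicase, fell by 3.34 ± 0.141 on the log2 scale, Ccne2, the other cyclin E, by 2.83 ± 0.156, and Cdt1, the other loading factor, fell by 2.48 ± 0.0988.

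Among the 11 replication genes the falls were even in size, with log2 fold changes from -2.98 (Mcm5) to -2.07 (Rrm1, large subunit of ribonucleotide reductase). The 6 MCM genes, whose products form the ring-shaped replicative helicase, had log2 fold changes from -2.98 to -2.45. Mcm4 was at 326, 343, 364, 364 and 354 CPM in E13.5 controls and at 53.3, 68.9, 59.5 and 52.2 CPM in E18.5 controls, with a log2 fold change of -2.52 ± 0.0905 (adjusted p = 2.04e-11, edgeR). No E18.5 library came near the E13.5 range, and the same held for Mcm2 (263 to 285 against 40.8 to 56.4 CPM) and Mcm3 (302 to 318 against 41.4 to 59.8 CPM). Pcna, the sliding clamp of DNA polymerases, fell by 2.69, Tyms (thymidylate synthase) by 2.72 and Rrm2, the small subunit of ribonucleotide reductase, by 2.68.

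Genes of mitosis mostly fell by less than those of S phase entry. Median log2 fold changes were -3.08 for entry to S phase, -2.52 for replication, -2.49 for centromere and checkpoint, -2.26 for cyclins and kinases, -2.14 for the spindle, -1.90 for the transcription factors and -1.74 for Mki67 and Top2a. Ccna2 (cyclin A2, active in S and G2) went from 258, 260, 260, 284 and 274 CPM to 46.4, 66.2, 47.0 and 42.3 CPM, a log2 fold change of -2.34 ± 0.120. Ttk, a kinase of the spindle checkpoint, went from 78.9, 79.8, 78.9, 88.3 and 80.9 CPM to 11.3, 17.1, 12.6 and 9.27 CPM (-2.63 ± 0.145). In both genes E18.5 control replicate 2 was the highest of its group and still far below the lowest E13.5 library.

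Members of a role did not all fall alike. Within the centromere group, Bub1, a checkpoint kinase, fell by 2.70, while Cenpf and Cenpe, large kinetochore proteins, fell by 1.55 and 1.65. Within the spindle group, Kif2c, a microtubule-depolymerising kinesin, fell by 2.40 and Prc1, which bundles the midzone, by 1.24 ± 0.142, the smallest fall outside the inhibitors. Kif20a, a cytokinesis kinesin, went from 158, 151, 154, 155 and 163 CPM to 27.0, 36.9, 26.4 and 24.3 CPM (-2.38 ± 0.111), although 33.17% of its exon bases are shared with Cdc23, where reads cannot be assigned to either gene.

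Mki67, the antigen used to stain cycling cells, kept more of its mRNA than most members. It was at 592, 483, 578, 561 and 576 CPM in E13.5 controls and at 194, 209, 207 and 143 CPM in E18.5 controls, a log2 fold change of -1.51 ± 0.110. Top2a, which untangles chromosomes, was at 747, 652, 757, 712 and 701 CPM and at 178, 221, 164 and 133 CPM (-1.98 ± 0.127). Both groups are apart in each gene. Of the transcription factors, Mybl2 (B-Myb) went from 46.7, 41.7, 46.1, 44 and 42.3 CPM to 7.53, 10.3, 8.52 and 8.79 CPM (-2.27 ± 0.0969), Foxm1 fell by 1.90 and E2f1 by 1.26.

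The inhibitors went opposite ways. Cdkn1a (p21, the CDK inhibitor that p53 induces) was at 7.69, 9.11, 6.37, 7.49 and 6.15 CPM in E13.5 controls and at 69.3, 45.4, 33.1 and 39.5 CPM in E18.5 controls. It was the single member that rose, by 2.72 ± 0.198 on the log2 scale (adjusted p = 5.34e-08, edgeR). Cdkn1c (p57, an imprinted inhibitor, chromosome 7, 143458339 to 143461050) was at 225, 279, 244, 265 and 271 CPM and fell to 105, 117, 113 and 125 CPM (-1.10 ± 0.0761, adjusted p = 1.19e-08, edgeR), the smallest fall of the 43. Of its exon bases 30.65% are shared with the gene model Gm44732.

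**Figure D2:**
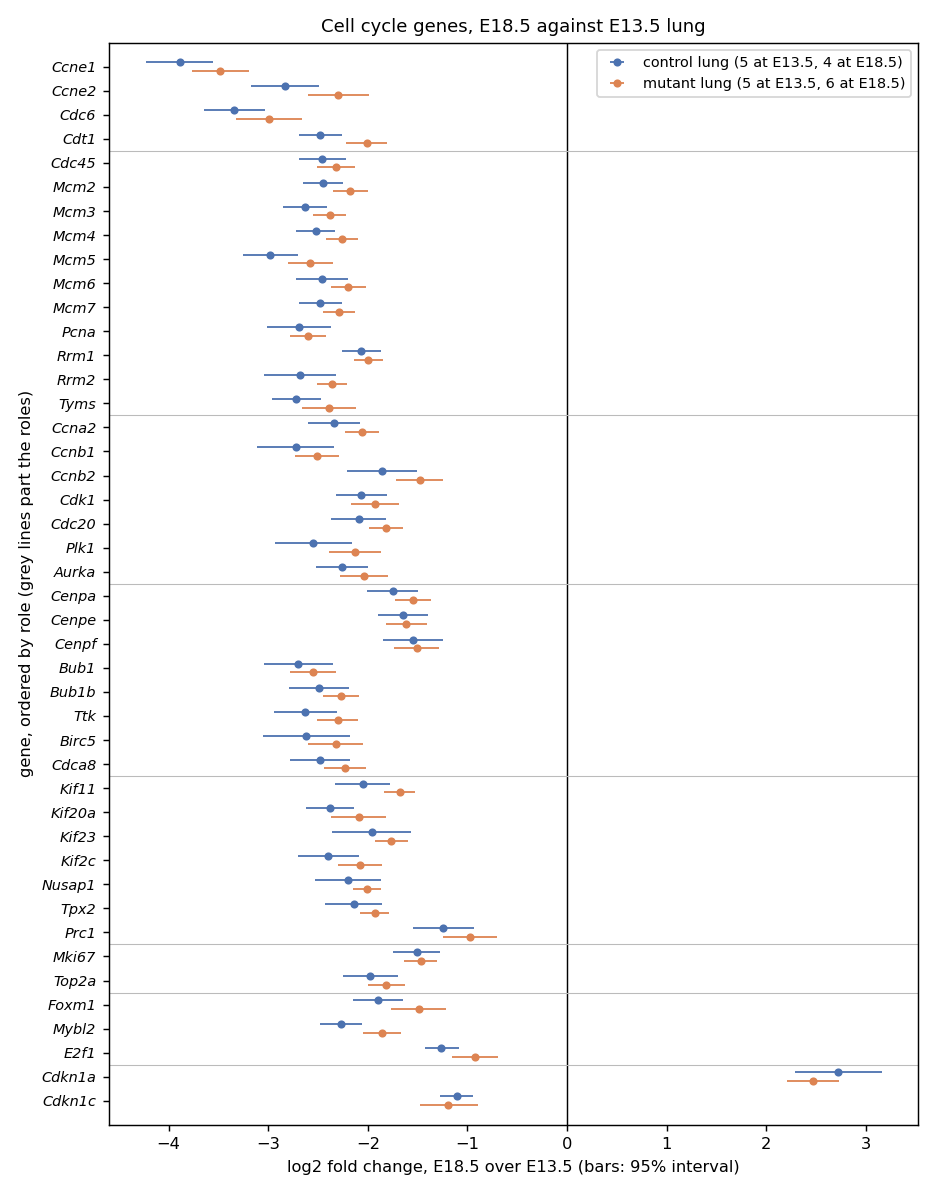
Log2 fold change from E13.5 to E18.5 (horizontal axis, with 95% intervals) of each of 44 genes (vertical axis, by role) in control lung, blue, and mutant lung, orange. All genes but Cdkn1a lie left of 0 in both genotypes, Ccne1 farthest at -3.89 and -3.48, and the orange points lie nearer to 0 for 43 of 44 genes.

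Per length, the order of the genes changed with stage. Length here is that of all annotated exons of a gene, which can exceed that of its mRNA, so ranks between genes are approximate. In E13.5 controls Pcna was the most abundant of the 42 at 115 CPM per kb of exon and Mybl2 the least at 9.53, with a median of 40.0 CPM per kb. In E18.5 controls Cdc20, which activates the anaphase-promoting complex, led at 21.9 and Cdc6 was last at 1.31, with a median of 8.0 CPM per kb. Cdkn1a, at 3.31 CPM per kb at E13.5, was below all 42, and at 21.1 CPM per kb at E18.5 it was below Cdc20 alone among these 42.

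The wider cycle lists moved the same way in control lung. All 28 further replication and repair genes fell (median -2.63) and so did all 50 further mitosis genes (median -2.20), among them Exo1, a repair exonuclease (78.4 ± 2.15 to 6.32 ± 1.85 CPM, SD, n = 5 and 4), and Trip13, a checkpoint ATPase (69.7 ± 4.01 to 6.54 ± 1.43 CPM). Of 25 genes for D cyclins, CDKs, RB and E2F family members, 17 fell and 6 rose, beside the 39.6% of all genes that fell and the 40.4% that rose. Chek1, the replication checkpoint kinase, fell by 3.5 ± 0.142, while Rbl2 (p130, the RB relative of resting cells) rose by 1.46 ± 0.0814 and Cdkn1b (p27) by 1.17 ± 0.0780 on the log2 scale. The splits of the p53 and imprinted lists were closer to those shares. Of 14 p53 targets, Gtse1 being also in the mitosis list, 8 rose and 6 fell, Btg2, an antiproliferative gene, going from 62.0 ± 7.30 to 289 ± 46.0 CPM. Of 13 imprinted growth genes, the member Cdkn1c among them, 8 fell and 5 rose, Peg10 falling from 254 ± 32.4 to 14.2 ± 1.68 CPM.

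Stage cannot be told apart from the lobes taken (both lungs at E13.5, right lobes at E18.5) or from whatever else differed between the separately deposited tables. Many other transcripts moved over the same interval. The lung epithelium markers summed to 488 to 644 CPM in E13.5 controls and to 11600 to 13700 CPM in E18.5 controls. That rise was mostly Sftpc, at 11.9 to 57.8 and 8540 to 10100 CPM, while Epcam fell from 157 to 192 CPM to 75.2 to 85.3 CPM. Erythroid markers summed to 491 to 954 CPM and 4920 to 6550 CPM. The part of this change in cell mixture was not tested.

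Mutant lungs, which share no library with the controls, went the same way. In them 43 members fell and Cdkn1a rose, where 37.2% of 17156 genes fell and 37.4% rose; each of the 44 was called with the same sign in both genotypes. The median log2 fold change was -2.07, and the size was smaller in mutants than in controls for 43 of 44 members, Cdkn1c being the exception (-1.19 ± 0.137 against -1.10 ± 0.0761); the test of this difference, given after the genotype results, called no member. Ccne1 was at 104, 82.1, 92.5, 77.1 and 76.3 CPM in E13.5 mutants and at 5.71 to 9.33 CPM (median 7.47) in the 6 E18.5 mutants, a log2 fold change of -3.48 ± 0.137. Rrm2 went from 233, 226, 234, 212 and 208 CPM to 38.6 to 47.0 CPM (median 41.0), with -2.36 ± 0.0722, the lowest adjusted p of the list (6.12e-14, edgeR). Groups did not overlap for any of the 44, as for 31.8% of all genes lower and 29.6% higher.

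The same held gene by gene through the roles. Bub1b, the BubR1 checkpoint protein, went from 228, 267, 235, 254 and 254 CPM to 43.9 to 60.4 CPM (median 48.0), Nusap1, a spindle microtubule protein, from 208, 181, 192, 190 and 175 CPM to 43.7 to 48.0 CPM (median 45.6), and Mcm7 from 313, 293, 315, 303 and 296 CPM to 54.9 to 70.2 CPM (median 59.1). Cdkn1a rose from 9.14, 8.13, 7.60, 6.18 and 6.24 CPM to 34.4 to 45.4 CPM (median 39.6), by 2.47 ± 0.124 on the log2 scale. In mutants too, all 28 further replication genes fell, and 49 of 50 mitosis genes, while 16 of the 25 D cyclin, CDK, RB and E2F genes fell and 6 rose. Of the 14 p53 targets 5 rose and 6 fell, and of the 13 imprinted genes 5 rose and 8 fell, beside the 37.4% of all genes that rose and the 37.2% that fell. Both stage results kept all 44 calls and their signs with DESeq2, other scalings, no filter, and each library left out.

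Whether deleting Myocd moved these genes was asked in each organ and stage. In E13.5 lung no member was called, where 0.206% of 16486 genes were; none had an unadjusted p under 0.05 (3.57% of all genes did), and DESeq2 called none. The members' log2 fold changes, mutant over control, ran from -0.04 to 0.17 with a median of 0.06 (0.01 over all genes, and 0.0399 for the members without mutant replicate 1), and 37 of 44 were above 0, against 54.1% of all genes. Top2a was at 747, 652, 757, 712 and 701 CPM in controls and at 743, 770, 691, 798 and 774 CPM in mutants, a log2 fold change of 0.09 with a 95% interval from -0.06 to 0.23. For Mki67 (556 to 645 CPM in mutants, 483 to 592 in controls) the interval was -0.04 to 0.27. In both genes the groups overlap. The sum of the 42 members did not, at 8160 to 8620 CPM in controls and 8630 to 8940 CPM in mutants, the nearest libraries lying side by side.

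Ccne1 had the lowest unadjusted p among members with a positive sign (0.0621, adjusted p = 0.998, edgeR): its controls were at 73.2 to 78.6 CPM and its mutants at 76.3 to 104 CPM. Kif11, the motor that pushes spindle poles apart, had the lowest among those with a negative sign, at 176, 235, 207, 198 and 171 CPM in controls and 184, 187, 188, 219 and 177 CPM in mutants (log2 fold change -0.04 ± 0.0933). Tpx2, a spindle assembly factor, was the single member whose groups did not overlap (0.279% of all genes on the higher side), with a log2 fold change of 0.09 ± 0.0505. The widest interval among the members ran from -0.24 to 0.45 (Cdkn1c), so changes of the size seen between stages lay outside all 44 intervals.

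E13.5 mutant replicate 1, at 17.4 M counts the shallowest of its group, stood apart from the other 4 mutants in single members while its sum (8940 CPM) did not. It was high in Birc5, the survivin subunit of the chromosomal passenger complex, at 244 against 147 to 158 CPM, in Tyms at 168 against 120 to 130 CPM and in Cdkn1c at 423 against 226 to 265 CPM. It was low in Kif20a at 97.7 against 160 to 175 CPM, in Foxm1 at 106 against 164 to 180 CPM and in Prc1 at 71.3 against 117 to 132 CPM. Left out, no member was called either.

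In E18.5 lung the cycle genes leaned higher in mutants without passing the test. No member was called, where 0.0344% of 17467 genes were called higher and 0.55% lower. Unadjusted, 30 of 44 members had a p under 0.05 and all 30 were higher in mutants, against 4.02% of all genes higher at that level. Members moved together between these libraries, as given below, so counts of members are not counts of separate observations. The median log2 fold change was 0.32 (0.00 over all genes), 43 of 44 were above 0 (51.3% of all genes were), and the lowest adjusted p was 0.114 (edgeR), for Cdt1.

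Cdt1 was at 14.7, 17.8 and 13.3 CPM in control replicates 1 to 3, between the last and the first of these in replicate 4, and at 17.8 to 25.1 CPM (median 19.7) in the 6 mutants, a log2 fold change of 0.46 ± 0.120. The lowest mutant was level with the highest control, replicate 2. The most abundant members differed by less: Mki67 was at 194, 209, 207 and 143 CPM in controls and 185 to 230 CPM (median 220) in mutants (0.18, 95% interval -0.03 to 0.39), and Top2a at 178, 221, 164 and 133 CPM and 172 to 237 CPM (median 218), with 0.27 ± 0.125. In both, the ranges overlap.

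By role, the median log2 fold change was 0.53 for entry to S phase, 0.43 for the transcription factors, 0.30 to 0.32 for replication, cyclins and kinases, centromere and spindle, and 0.22 for Mki67 and Top2a. The largest values were 0.61 for Ccne1 (95% interval 0.17 to 1.04) and 0.61 for Ccne2. The inhibitors did not follow: Cdkn1a was at 69.3, 45.4, 33.1 and 39.5 CPM in controls and 34.4 to 45.4 CPM (median 39.6) in mutants (-0.22, interval -0.57 to 0.13). Cdkn1c was at 105, 117, 113 and 125 CPM in controls and 115 to 121 CPM (median 119) in mutants (0.04, interval -0.08 to 0.17).

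E18.5 control replicate 2 was the highest of the 4 controls in 41 of the 42 members other than the inhibitors, and its sum of 2240 CPM lay within the mutants' sums of 1900 to 2450 CPM, while the other 3 controls (1450 to 1680 CPM) lay below all 6 mutants. No member's groups separated over all 10 libraries, where 0.59% of genes separated on the higher side. Control replicate 2 stood out in these same genes, so leaving it out widens the difference by construction. Mutant replicate 6 was in turn the highest of the 6 mutants in 33 of the 42. With 1 library left out, the members called higher ran from 0 to 21, with medians from 0.236 to 0.488. Without control replicate 2, 21 members were higher in mutants, where 0.438% of 17824 genes were, and the median log2 fold change was 0.488. These 21 calls are thus no separate support for a difference. Those 21 covered all roles but the inhibitors and the proliferation markers, with Birc5 at 0.76 ± 0.126 (adjusted p = 0.00613), Ccnb2, a mitotic cyclin, at 0.71 ± 0.133 and Rrm2 at 0.63 ± 0.1 (adjusted p = 0.0053, edgeR). With all libraries, DESeq2 called 2 (Cdt1 and Kif11, with 0.283% of genes called higher) and dropping the filter on low counts called 2 (Mcm3 and Kif11, with 0.0657%).

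**Figure D3:**
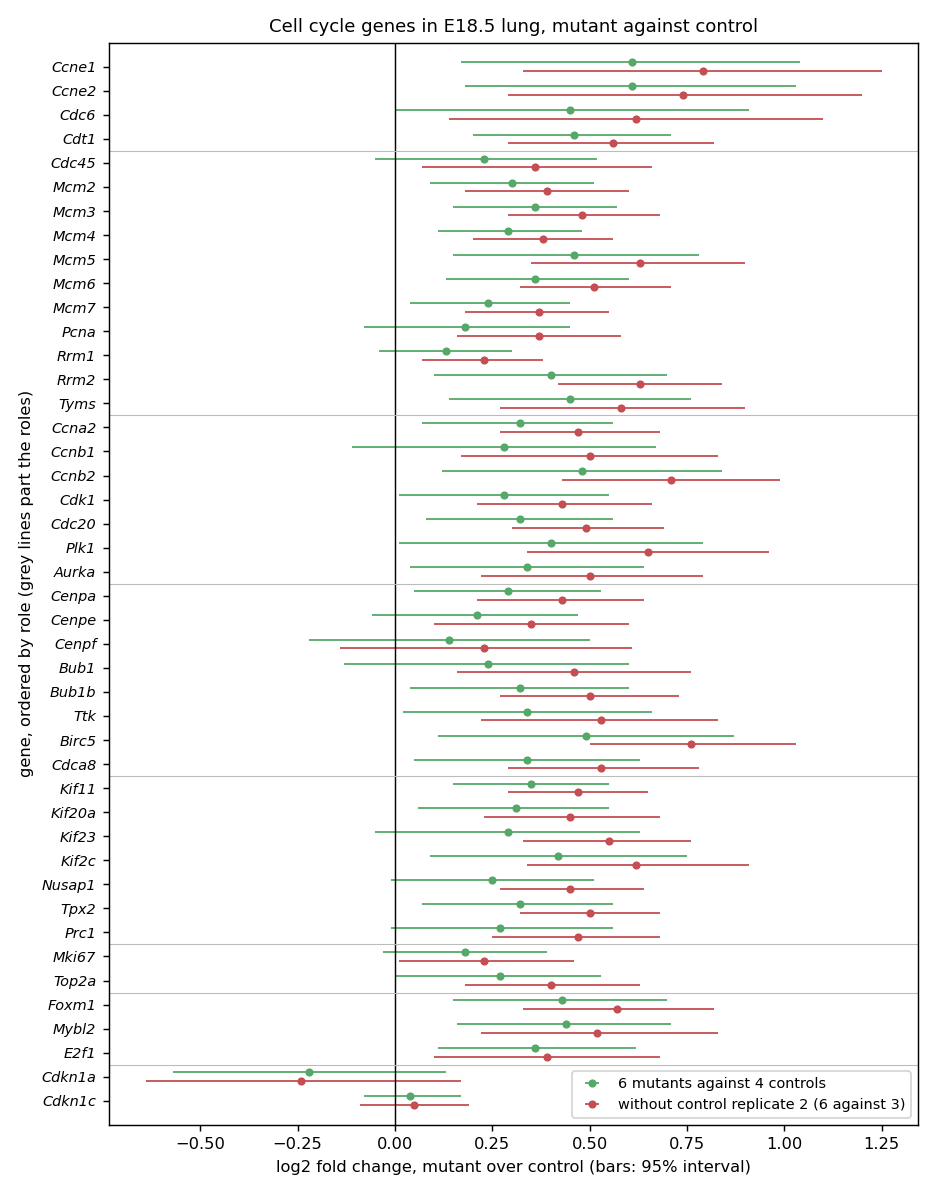
Log2 fold change, mutant over control, in E18.5 lung (horizontal axis, with 95% intervals) for 44 genes (vertical axis, by role), from all 10 libraries, green, and without control replicate 2, red. Green points lie right of 0 for 43 genes with a median of 0.32, and the red median is 0.488. Control replicate 2 was the highest control in 41 of 42 of these genes, so leaving it out widens the difference.

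Other cycle lists leaned the same way, uncalled. Of further mitosis genes 50 of 50 were above 0 (median 0.29, 24 with an unadjusted p under 0.05). Of replication genes 27 of 28 were (median 0.31, 12 under 0.05). Over all genes 51.3% were above 0, and 4.02% were higher at an unadjusted p under 0.05. In both lists control replicate 2 and mutant replicate 6 had the highest sums of their groups, as among the members. The lists are thus no separate support for a difference. Of the D cyclin, CDK, RB and E2F list 1 of 25 was called: Myb fell from 16.7 ± 1.12 (SD, n = 4) to 10.3 ± 1.95 CPM (SD, n = 6), by 0.69 ± 0.139 on the log2 scale (adjusted p = 0.0256, edgeR). Of other cell markers, the 6 of airway epithelium, mostly Scgb1a1 and Scgb3a2, summed to 1160 to 1420 CPM in controls and 664 to 947 CPM in mutants, without overlap. Scgb1a1, Scgb3a2 and Foxj1 were each apart, while Sox2, Trp63 and Krt5 overlapped between the genotypes. Sums overlapped for 5 leukocyte markers, mostly Lyz2 (708 to 965 and 474 to 752 CPM), and 8 erythroid markers (4920 to 6550 and 4120 to 5430 CPM). They also overlapped for 5 mesenchyme markers (3360 to 4180 and 3850 to 4250 CPM), endothelium (2320 to 2510 and 2190 to 2430 CPM) and alveolar type 1 cells (2110 to 2280 and 2030 to 2490 CPM). None of these markers was at 0 in a whole group, and their part in the lean of the cycle genes was not tested. The 8 thymus markers, a tissue rich in dividing cells, summed to at most 1.31 CPM, with Foxn1 at 0 in both groups.

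The mutant effect at E18.5 less that at E13.5 was tested directly. No member was called, where 0.0268% of 18639 genes were; the median of the difference was 0.28 (-0.01 over all genes), 42 of 44 were above 0 (48.5% of all genes were), and 18 had an unadjusted p under 0.05, all positive, against 3.02% of all genes. These counts rest on the same E18.5 libraries, in which the members moved together, and are not separate observations either. Cdt1 had the lowest p, with a difference of 0.48 ± 0.137 (95% interval 0.20 to 0.76, adjusted p = 0.461, edgeR), and Mki67 was at 0.06 (interval -0.22 to 0.34). Without E18.5 control replicate 2, Rrm2 alone was called (adjusted p = 0.0283, edgeR), where 0.0578% of genes were higher, and the median was 0.445. That library stood out in these same genes, so leaving it out widens this difference too by construction.

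In the trachea no member was called where 0.071% of 18315 genes were. The median log2 fold change was 0.11, 35 of 44 were above 0 (52.6% of all genes were) and 5 had an unadjusted p under 0.05, all higher, against 3.33% of all genes. Ccne1 was at 14.1, 14.3 and 15.9 CPM in control replicates 2 to 4, lower still in replicate 1 (mean 14.4 ± 1.01, SD, n = 4), and at 16 to 23 CPM (median 20.6) in mutants, 0.47 ± 0.156 on the log2 scale, with an adjusted p of 0.628 (edgeR). It was the single member whose groups did not overlap, as 0.852% of all genes did on the higher side. Mybl2 had the largest value, 0.81 ± 0.274, with mutants at 10.4 to 20.5 CPM (median 11.6) and controls at 5.94, 4.69, 7.43 and 11.7 CPM. Without mutant replicate 4 the median log2 fold change of the members was 0.2061, and with any other tracheal library left out it was 0.0774 to 0.1399.

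Values of other tracheal members overlapped between genotypes. Cdkn1c, among the most abundant, was at 356, 386, 411 and 417 CPM in controls and 320 to 433 CPM (median 370) in mutants (95% interval -0.27 to 0.17). Top2a was at 141, 121, 156 and 130 CPM and 84.8 to 180 CPM (median 139), with an interval from -0.31 to 0.36, and Cdc45, a helicase cofactor, had the lowest p on the lower side at 16.4, 20.5, 14.3 and 14.1 CPM against 13.7 to 15.9 CPM (median 14.4). Mutant replicate 4 was the lowest of its group in 35 of 42 members. It had 12.4 M counts, and the tracheal markers spread widely too: cartilage markers ran from 2880 to 11400 CPM over the mutants and from 9030 to 14000 CPM over the controls, and leukocyte markers from 252 to 616 and from 227 to 268 CPM. Their part was not tested.

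The mutant effect in trachea less that in E18.5 lung called no member, where 0.0252% of 19859 genes were called. The median of the differences was -0.13 (0.07 over all genes) and moved with single libraries: it was -0.2906 without lung control replicate 2, -0.0733 without replicate 1, -0.0699 without replicate 4, -0.0762 without lung mutant replicate 6 and -0.0522 without tracheal mutant replicate 4. Of the differences 9 of 44 were above 0 (59.1% of all genes were), and Foxm1, a mitotic transcription factor, had the single unadjusted p under 0.05 (-0.42, 95% interval -0.83 to -0.01), where 1.68% of all genes were lower at that level.

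**Figure D4:**
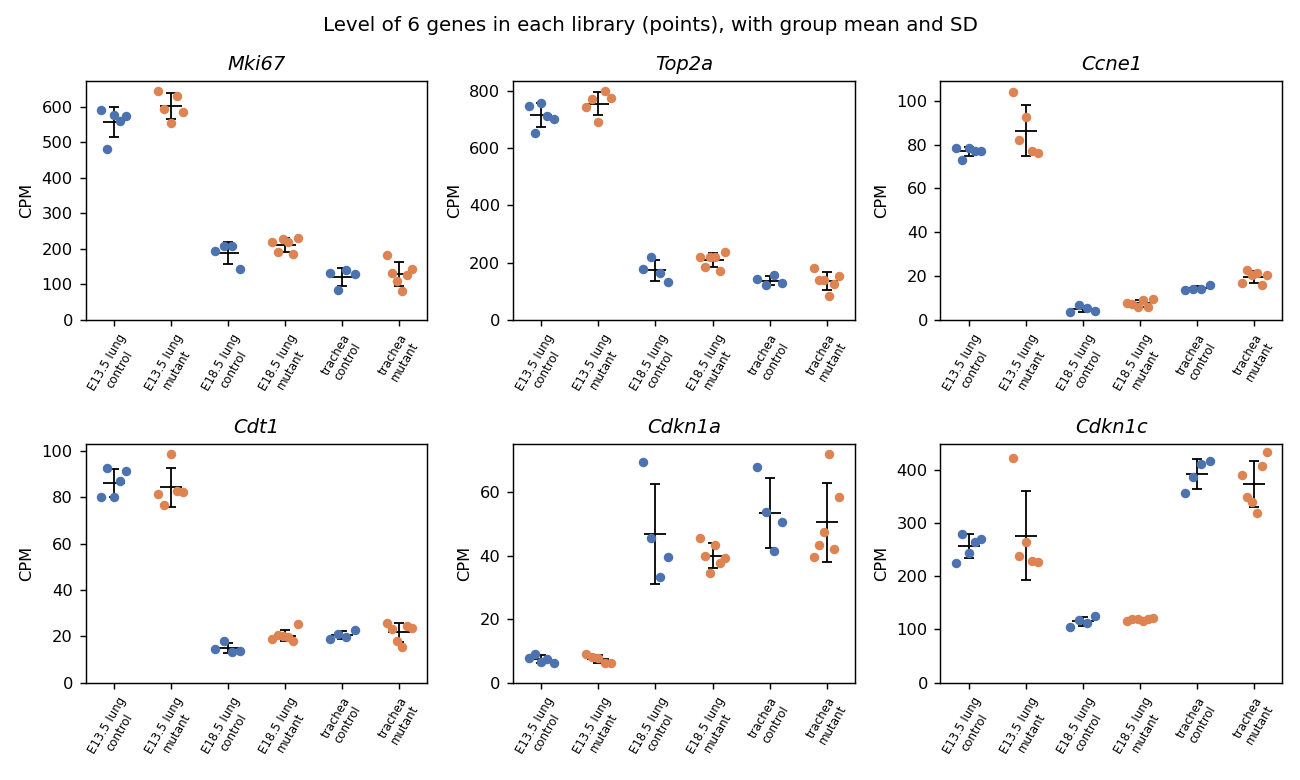
Level in CPM (vertical axes, from 0) of Mki67, Top2a, Ccne1, Cdt1, Cdkn1a and Cdkn1c in each library (points) of 6 groups, with group mean and SD; blue marks controls and orange mutants. Cdkn1a is near 7 CPM at E13.5 and 33.1 CPM or more in every E18.5 library, and Cdkn1c is 320 CPM or more in all tracheas and at most 125 CPM in all E18.5 lungs.

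Trachea and lung of the same age carried similar sums of the 42 genes, 1700 to 1870 CPM in control tracheas and 1450 to 2240 CPM in control lungs. In controls 8 of all 44 members, inhibitors included, were higher in trachea and 2 lower. Both are smaller shares than over all genes, where 24.7% of 17553 were higher and 27.7% lower. Those higher were Cdkn1c, Ccne1, Plk1, Tyms, Cdc6, Rrm2, Cdc45 and Cdt1, of which 6 belong to S phase entry and replication, and those lower were Mki67 and the kinetochore motor Cenpe. In mutants 9 of the 44 were higher and 7 lower, again below the shares of all genes, where 31.2% of 17564 were higher and 29.2% lower. Both genotypes, which share no library, called Ccne1, Rrm2, Tyms, Plk1 and Cdkn1c higher and Cenpe and Mki67 lower.

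Cdkn1c differed most. It was at 105, 117, 113 and 125 CPM in control lungs and 356, 386, 411 and 417 CPM in control tracheas, a log2 fold change of 1.77 ± 0.0766 (adjusted p = 1.08e-08, edgeR), and in mutants 1.73 ± 0.0793, with lungs at 115 to 121 CPM and tracheas at 320 to 433 CPM. Ccne1 was at 3.43, 6.71, 5.43 and 4.22 CPM in control lungs and 14.4 ± 1.01 CPM (SD, n = 4) in control tracheas, 1.54 ± 0.218 on the log2 scale and 1.46 ± 0.154 in mutants. The tissues were apart in both genes in both genotypes, as were 23.6% of all genes on the higher side in controls and 19.8% in mutants. Cdkn1c is a gene of resting and differentiating cells, Ccne1 one of cells starting S phase.

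Plk1, the polo-like kinase of mitotic entry, was at 15.5, 30.6, 18.8 and 18.2 CPM in control lungs and 50.6, 39.0, 52.0 and 42.3 CPM in control tracheas (1.14 ± 0.196), and in mutants 0.71 ± 0.146. Tyms was at 15.5, 23.0, 18.6 and 15.8 CPM and 25, 35.5, 29.7 and 28.2 CPM (0.70 ± 0.163, and 0.53 ± 0.143 in mutants), and Rrm2 at 30.6, 46.2, 25.1 and 26.4 CPM and 45.5, 53.2, 49.3 and 46.7 CPM (0.60 ± 0.178). Control lungs and tracheas were apart in Plk1 and Tyms and overlapped in Rrm2, through lung replicate 2. Cdc6 (0.70 ± 0.209), Cdc45 (0.57 ± 0.190) and Cdt1 (0.46 ± 0.139) were called in controls and not in mutants, and the test of that difference between genotypes called none of the 3. Without lung control replicate 3 none of these 3 was called in controls (adjusted p from 0.0506 to 0.0596), and without replicate 4 Rrm2 was at an adjusted p of 0.0504 (edgeR).

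Mki67 was lower in trachea, at 133, 83.6, 141 and 129 CPM against 194, 209, 207 and 143 CPM in control lungs (-0.64 ± 0.158, adjusted p = 0.00559) and at -0.65 ± 0.137 in mutants (adjusted p = 0.000611, edgeR). Cenpe was at 23.3, 15.8, 23.1 and 24.1 CPM against 30.7, 42.9, 33.7 and 26.9 CPM (-0.64 ± 0.169, and -0.47 ± 0.118 in mutants). In both genes the control tissues did not overlap, as in 28.9% of all genes on the lower side; in mutants Mki67 did not overlap either (23.8% of genes). In mutants Top2a (-0.53 ± 0.131), Prc1 (-0.54 ± 0.159), Kif11 (-0.36 ± 0.102), Bub1 and Cenpf were also lower, and Cdk1, Birc5, Kif23 and Cdkn1a were higher. Cenpf (adjusted p = 0.0385), Bub1 (0.0455) and Kif23 (0.0306) were near the threshold (edgeR). Upper-quartile scaling gave adjusted p-values of 0.159 for Cenpf and 0.12 for Bub1. Cenpf missed the threshold in 8 of the 12 fits with 1 library left out, Bub1 in 7 and Kif23 in 5. Ccne2, the other cyclin E, was called in neither genotype (0.55 ± 0.217, adjusted p = 0.0528 in controls; -0.19 ± 0.289, adjusted p = 0.583 in mutants).

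**Figure D5:**
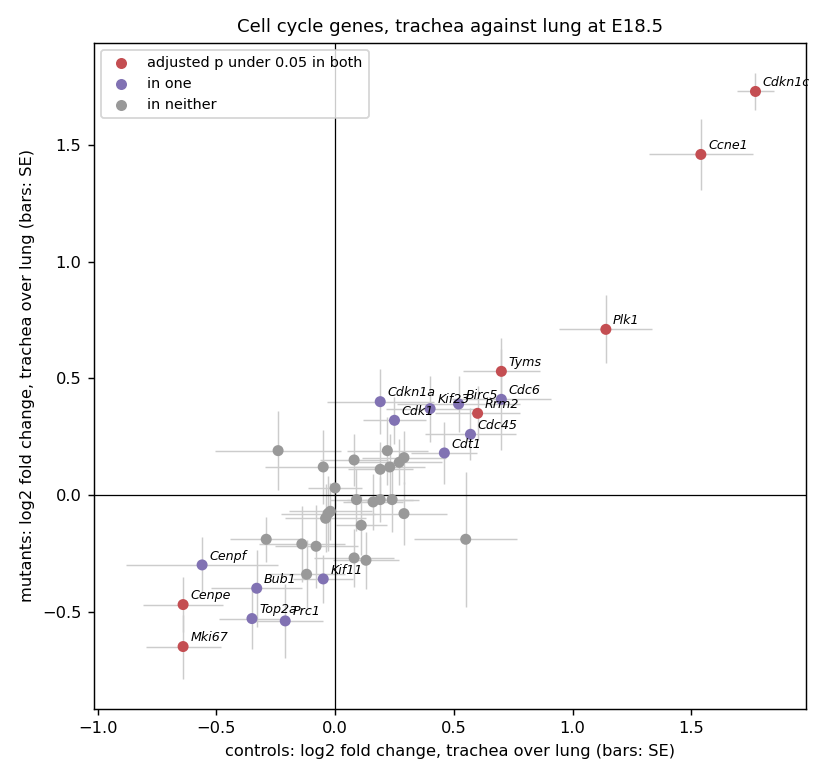
Log2 fold change, trachea over lung at E18.5, in controls (horizontal axis) and mutants (vertical axis), with SE bars, for 44 genes; red points were called in both genotypes, purple in one, grey in neither. Cdkn1c at 1.77 and 1.73 and Ccne1 at 1.54 and 1.46 lie at the upper right, and Mki67 at -0.64 and -0.65 at the lower left.

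The shares of all genes called, 24.7% higher and 27.7% lower in control trachea and 31.2% and 29.2% in mutant trachea, are the background of the related lists. In controls 10 of 28 replication genes were higher and none lower, among them Gins2, a helicase subunit (4.86 ± 1.68 to 11.4 ± 1.55 CPM, SD, n = 4 each), and in mutants 10 of 27 were higher and none lower. Of 50 mitosis genes 8 were higher and 4 lower in controls, both below the background shares, and 13 and 10 in mutants, with Nek2, a centrosome kinase, going from 23.9 ± 5.26 to 72.1 ± 6.64 CPM and Smc4, a condensin subunit, from 143 ± 11.9 to 92.1 ± 9.39 CPM in controls. In controls Ccnd2 (cyclin D2) was higher at 343 ± 42 against 117 ± 15.2 CPM and Cdk6, its kinase partner, lower at 41.3 ± 6.30 against 92.5 ± 4.23 CPM. Of 13 imprinted genes, the member Cdkn1c among them, 8 were higher and 3 lower in both genotypes, H19 by 2.72 ± 0.0811 on the log2 scale in controls. The 2 organs hold different cells, as the cartilage and epithelium markers show, and the part of this in the cycle genes was not tested. Counts of control calls moved with single lungs. Without lung control replicate 2, 19 members were higher (22.1% of genes were). That lung was the highest control lung in 41 of the 42 members other than the inhibitors, so leaving it out raises trachea over lung by construction. Without replicate 3 or replicate 4, 5 members were higher (21.8% of genes both times), and without replicate 4, 4 were lower (24.1%). Upper-quartile scaling, which moved the median of all genes from -0.051 to 0.089 in controls and from 0.039 to 0.144 in mutants, gave 12 higher (29.5% of genes) and 2 lower (22.2%) in controls, and 11 higher (35.6%) and 5 lower (24.6%) in mutants.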

How the data were processed

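Poly(A) RNA of single lungs or tracheas was sequenced as single reads with a kit that does not mark strand, per the labels' protocols. STAR mapped the reads and GRCm38 was the build, as the submitters' processing notes say, with the STAR version not given in the sources used here. What the authors deposited are raw counts for each gene, made with featureCounts 1.6.2 at default options and GENCODE vM17, per the file headers: those defaults leave out reads that fall on 2 genes, which touches 8 members that share over 5% of their exon bases (Ccne2, Cdc45, Mcm7, Ccna2, Plk1, Kif20a, Prc1 and Cdkn1c). Per the series design, the authors used DESeq2.

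From these deposited counts, 9 comparisons were tested with edgeR 4.0.16 (TMM, filterByExpr, robust quasi-likelihood F test, two-sided) in R 4.3.3, each on the libraries of its own groups, adjusted over all genes tested. Alternatives were DESeq2 1.42.0, its size factors in edgeR, upper-quartile scaling, no filter, a replicate block and each library left out. The procedure was also run on simulated counts, whose changed genes were drawn independently, unlike these members. That run is not used as support for any result here. Replicates are separate organs per the labels. No 2 libraries of a group were copies (lowest chi-square per degree of freedom 3.81). The members and lists were chosen with earlier results of these data known. Values of every library are given for up to 10 called members of a comparison, taken by role, or where none passed for the 3 most abundant and the lowest p of each direction; others named were chosen after their values were seen.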

Additional observations from a re-analysis of the deposited data

Results flagged for a closer look

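Each of 44 members, and the summed level of 42, was looked at in each of 6 groups, 270 groups of values in all, for a library whose level stood apart from the rest of its group by Dixon's gap criterion at the 95% level. 35 values stood apart; chance flags about 1 in 20 groups.

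E13.5 mutant replicate 1 held 11 of them. It was high in Birc5 (244 CPM against 147 to 158 in the other 4), Cdkn1c (423 against 226 to 265), Cenpa, the centromeric histone (213 against 169 to 175), Mcm6 (398 against 350 to 358), Ttk (93.5 against 76.6 to 79.0) and Tyms (168 against 120 to 130). It was low in Foxm1 (106 against 164 to 180), Kif20a (97.7 against 160 to 175), Mcm2 (240 against 274 to 284), Mcm4 (306 against 357 to 373) and Prc1 (71.3 against 117 to 132). Among the other E13.5 mutants, replicate 3 was high in Cdt1 (98.8 against 76.5 to 82.5) and replicate 4 in Kif11 (219 against 177 to 188).

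E18.5 lung control replicate 2 was high in 6 genes of mitosis: Aurka, a spindle pole kinase (30.6 CPM against 20.2 to 21.7), Cdc20 (54.8 against 35.5 to 37.2), Cdca8, a chromosomal passenger protein (36.0 against 22.4 to 24), Foxm1 (53.3 against 36.4 to 39.0), Kif23, a cytokinesis kinesin (58.7 against 30.4 to 34.6), and Kif2c (32.4 against 19.9 to 21.3). E18.5 lung mutant replicate 6 was high in Ccna2 (76.1 against 57.8 to 63.8), Cdca8 (42 against 28.9 to 33.2), Foxm1 (73.1 against 48.4 to 55.6) and Mcm5 (70.6 against 43.0 to 49.7).

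In trachea, mutant replicate 4 was low in Mcm4 (37.7 CPM against 65.0 to 78.3), Mcm5 (32.7 against 52.7 to 62.8) and Mcm6 (50.4 against 79.9 to 89.5) and high in Mybl2 (20.5 against 10.4 to 12.4). Control replicate 2 was low in Cdc6 (8.97 against 11.8 to 12) and Cenpe (15.8 against 23.1 to 24.1). In E13.5 controls, replicate 2 was low in Ccne1 (73.2 against 77.1 to 78.6), Mki67 (483 against 561 to 592) and Prc1 (105 against 117 to 121), replicate 1 in Rrm2 (197 against 218 to 221) and replicate 3 in Aurka (107 against 117 to 119), and replicate 4 was high in Ttk (88.3 against 78.9 to 80.9).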

How the results depend on the processing

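Both stage results and the E13.5 and tracheal genotype results kept every member's call in all alternatives run. In E18.5 lung the count of members higher in mutants, 0 in the reported fit, was 2 with DESeq2, 2 with no filter on low counts and 0 to 21 with 1 library left out (21 without control replicate 2), with medians from 0.236 to 0.488. For the difference of the mutant effect between E18.5 and E13.5 lung it was 0 to 1, and the median, 0.28, ran from 0.215 to 0.445. For control trachea against lung, leaving out 1 library gave 5 to 19 higher (8 reported) and 2 to 4 lower (2 reported). For mutants it gave 8 to 13 higher (9 reported) and 5 to 10 lower (7 reported). The cause was not tested. Same-numbered libraries were not treated as pairs, since the labels name no shared embryo and not every pair's deviations correlated above 0.1. In genotype and stage comparisons they ran from -0.223 to 0.143. Of E18.5 control lungs 3 of 4 correlated best with the mutant lung of their own number (0.003 to 0.129, other numbers up to 0.124). By genotype, 0 of 5 did so in E13.5 lung and 1 of 4 in trachea. For lung and trachea the correlations ran from 0.077 to 0.151 in controls and 0.031 to 0.132 in mutants, where other numbers reached at most 0.053 and 0.05. The titles number both organs in the same order, and all 4 controls and all 6 mutants correlated best with their own number, a hint that these may be pairs. If so, the reported fits of trachea against lung leave that pairing out. A replicate block gave 9 higher and 2 lower in control trachea against lung (Birc5 gained, adjusted p = 0.00357, edgeR) and 8 higher and 9 lower in mutants (Kif23 lost at 0.0512, Bub1b gained at 0.0435 and Tpx2 at 0.0328). It gave medians of 0.312 in E18.5 lung and 0.0392 in trachea for the genotype, and called no member by genotype. No direction of a called value reversed. Precision is limited by 4 to 6 libraries a group; in E18.5 lung the 95% interval of Ccne1 ran from 0.17 to 1.04.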
